A study of Mus musculus with 62 samples.

Results

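The nuclear oxidative phosphorylation subunits described here are the genes of the nucleus that encode subunits of the 5 complexes of the mitochondrial inner membrane. They were chosen by symbol. Protein-coding mouse symbols were taken that start with Ndufa, Ndufb, Ndufc, Ndufs or Ndufv and a digit, that are Sdha to Sdhd, or that start with Uqcr, with Cox4 to Cox8, or with Atp5, leaving out Ndufv3 and pseudogene names. The rule gave 85 of the 27179 genes in the count tables, with 36 in complex I, 4 in complex II, 8 in complex III, 20 in complex IV and 17 in complex V. Of the 85, 2 lie in the segments that are triplicated in Ts65Dn mice, Atp5j (also named Atp5pf) and Atp5o (Atp5po), and both belong to complex V.

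Complexes I and II pass electrons from NADH and succinate to ubiquinone, complex III passes them to cytochrome c and complex IV to oxygen. Complexes I, III and IV pump protons, and complex V, the ATP synthase, uses the proton gradient to make ATP. Except for complex II, each complex combines subunits encoded in the nucleus with subunits encoded by mitochondrial DNA, and neurons depend on this pathway for most of their ATP.

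RNA-seq was made of E17.5 forebrain of 8 euploid and 7 Ts65Dn embryos, whose sex the labels do not give, and of hippocampus of 6-week-old mice. The adult groups were 8 euploid, 7 Ts65Dn and 8 Ts65Dn;Brwd1+/- males, and 8 females of each of these 3 genotypes. Animal numbers in the titles start with T in female Ts65Dn replicates 6, 7 and 8 and male Ts65Dn;Brwd1+/- replicate 8, and with B in the other adults. The labels do not say what the letter marks. Among females T occurs only in Ts65Dn, and its part in the female comparisons was not tested. Ts65Dn mice carry an additional chromosome made of the distal part of chromosome 16 and the proximal part of chromosome 17, and Brwd1 lies in that segment of chromosome 16. Ts65Dn;Brwd1+/- mice carry the trisomy together with 1 mutant repro5 allele of Brwd1, a germline allele present in every cell, so their number of functional Brwd1 copies is that of euploid mice. Ts65Dn;Brwd1+/- mice came from Ts65Dn females crossed with Brwd1+/- males. The methods also describe a cross of Ts65Dn females with euploid males, and which cross gave the embryos is not given in the sources used here. The study describes a mixed DBA/2J and B6EiC3Sn/J background for all groups compared. Each of the 62 libraries came from 1 animal, and p-values refer to the spread between these animals.

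Library totals ran from 33.6 to 137.1 M (mega) counts in adults and from 14.9 to 62.6 M in embryos, and the 85 members took 0.742% to 1.23% of the adult and 0.808% to 0.996% of the embryonic counts. Levels are log2 CPM, counts scaled by the TMM-adjusted library total. Embryos held Dcx, a message of young neurons, at 10.13 to 10.74 and the cortical Tbr1 at 4.54 to 7.67. Adults held the hippocampal markers Wfs1 at 6.40 to 8.45 and Prox1 at 4.19 to 7.05, but not Ocm, which did not rise above -1.77. Brwd1 had medians of 7.55 in euploid and 8.02 in Ts65Dn embryos. Its adult medians were 6.74, 7.23 and 7.12 in euploid, Ts65Dn and Ts65Dn;Brwd1+/- males and 6.95, 7.35 and 7.20 in females. Against Ts65Dn, the log2 fold change of Brwd1 in Ts65Dn;Brwd1+/- animals was -0.25 in each sex (SE 0.09 and 0.11, edgeR adjusted p = 0.626 and 0.9999). The dosage of each library was taken as the median log2 ratio to euploid over the triplicated genes, leaving out Atp5j and Atp5o. It was 0.57 to 0.62 in Ts65Dn embryos, and 4 adult libraries had a dosage near 0 against their labels, namely male Ts65Dn replicate 1, male Ts65Dn;Brwd1+/- replicates 2 and 8 and female Ts65Dn;Brwd1+/- replicate 3. Sex-linked messages went against the label in male Ts65Dn replicate 7 and female euploid replicate 7. All libraries were kept under their labels, and values without these 6 are given where results on the members rest on them. The Brwd1 values above include them, and none without them is given, so a part of the lower Brwd1 in Ts65Dn;Brwd1+/- groups may come from libraries without trisomic dosage.

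A pair of female libraries stood apart in the members themselves. The mean log2 CPM over the members that are not triplicated was 5.96 in female euploid replicate 2 and 5.99 in female Ts65Dn;Brwd1+/- replicate 7, against 5.21 to 5.59 in the other 45 adult libraries. The mean over cytosolic ribosomal protein genes was 5.85 and 5.78 in the same libraries, against 5.14 to 5.45. The summed astrocyte markers were the lowest of the adults there, at a log2 CPM of 11.40 and 11.28 against 11.74 to 12.27, while Ttr, a choroid plexus message, was at 12.24 and 12.37 within an adult range of 3.41 to 12.49. The totals of these libraries, 55.9 and 58.7 M counts, lay inside the range of the others. The part of RNA quality or cell content in this was not tested, and female results are given with and without both libraries.

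**Figure D1:**
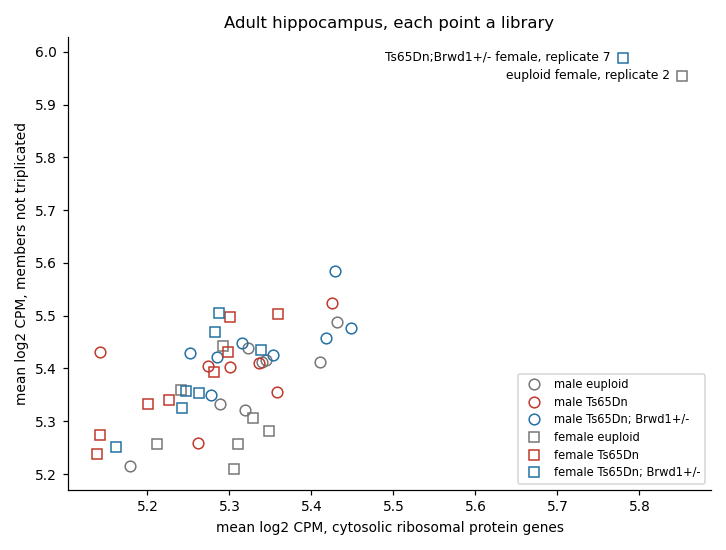
Each point is an adult hippocampal library, with the mean log2 CPM over the cytosolic ribosomal protein genes on the x axis and over the members that are not triplicated on the y axis (colour, genotype; shape, sex). Female euploid replicate 2 and female Ts65Dn;Brwd1+/- replicate 7 lie apart at 5.96 and 5.99 on the y axis, and the other 45 libraries lie between 5.21 and 5.59.

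Atp5j (Entrez gene 11957, chr16:84827871-84835857 on mm10) encodes coupling factor 6 of the peripheral stalk that holds the ATP synthase in place. Atp5o (gene 28080, chr16:91925223-91931630) encodes the oligomycin sensitivity conferral protein, which joins that stalk to the catalytic head. Their promoter windows, from 250 bases before to 50 bases after a RefSeq start (GRCm38.p6, both on the minus strand, written 5' to 3'), are shown because these are the members whose copy number differs between the groups. Capitals mark the motifs searched on both strands, among them CCGGAAG (GABP) and AAGATGGCG (YY1). The others, GCATGCG and a longer motif, are both parts of the site of NRF1, a regulator of respiratory genes. The longer motif is a palindrome in its exact form and is marked here with the fifth base free.
Atp5j, chr16:84834927-84835226: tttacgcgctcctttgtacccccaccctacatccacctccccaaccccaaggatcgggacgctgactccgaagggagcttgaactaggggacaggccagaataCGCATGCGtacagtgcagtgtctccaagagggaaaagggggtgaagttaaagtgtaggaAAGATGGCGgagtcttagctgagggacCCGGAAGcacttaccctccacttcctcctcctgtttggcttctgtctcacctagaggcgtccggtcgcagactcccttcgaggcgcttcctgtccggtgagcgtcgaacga
Atp5o, chr16:91931581-91931880: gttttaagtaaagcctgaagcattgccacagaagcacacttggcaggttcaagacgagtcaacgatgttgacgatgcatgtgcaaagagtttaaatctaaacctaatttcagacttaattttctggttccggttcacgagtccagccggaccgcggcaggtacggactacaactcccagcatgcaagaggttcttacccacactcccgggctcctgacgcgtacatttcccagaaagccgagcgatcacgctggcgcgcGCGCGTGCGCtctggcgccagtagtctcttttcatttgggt
The Atp5j window is the one of its 2 RefSeq windows that overlaps the window of Gabpa, by 247 bases. Gabpa encodes the DNA-binding subunit of GABP (also called NRF-2), is transcribed from the opposite strand and is triplicated as well. The GCATGCG, AAGATGGCG and CCGGAAG matches of the Atp5j window lie in this overlap and so are those of the Gabpa window too. The Atp5o window matched the longer NRF1 motif only with the fifth base free, and did not hold the exact palindrome. Windows were found for 68 members. With the fifth base free, the longer motif was in 25% of these members and 7.42% of 16783 genes. The exact palindrome was in 7.35% and 1.52%. GCATGCG was in 16.2% and 5.12%, CCGGAAG in 25% and 13.3%, and AAGATGGCG in 10.3% and 2.22%. GCATGCG can lie within the palindrome, and a match is not evidence of binding.

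In E17.5 forebrain, the triplicated ATP synthase members were higher in Ts65Dn than in euploid embryos, without overlap between the groups. Atp5j was at 6.68 to 7.15 log2 CPM (median 6.84) in 8 euploid and at 7.28 to 7.65 (median 7.44) in 7 Ts65Dn embryos. Atp5o was at 7.63 to 7.85 (median 7.81) and 8.29 to 8.50 (median 8.37). Every Ts65Dn embryo lay above the highest euploid embryo for each gene. The log2 fold changes were 0.55 for Atp5j (SE 0.07, edgeR adjusted p = 3.6e-04) and 0.59 for Atp5o (SE 0.05, adjusted p = 3.6e-06), which correspond to 1.47-fold and 1.51-fold. Over the triplicated genes tested in embryos the median log2 fold change was 0.56.

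The same members were higher in Ts65Dn adults of each sex. In males, Atp5j was at 6.37 to 6.68 (median 6.59) in euploid and 6.37 to 7.31 (median 7.17) in Ts65Dn animals, and 6 of 7 Ts65Dn libraries lay above all euploid ones. Atp5o was at 6.80 to 7.15 (median 7.01) and 6.87 to 7.66 (median 7.55), with the same 6 of 7 above. The exception was replicate 1, a library without the dosage of its label. The log2 fold changes in males were 0.54 for Atp5j (SE 0.12, edgeR adjusted p = 0.029) and 0.51 for Atp5o (SE 0.12, adjusted p = 0.052). Without the libraries that go against their labels they were 0.60 (SE 0.04, edgeR adjusted p = 4.3e-09) and 0.57 (SE 0.05, adjusted p = 1.4e-07), with Atp5j at 7.18 ± 0.02 (SD, n = 5) in Ts65Dn against 6.57 ± 0.09 (SD, n = 8) in euploid males. Replicate 1 was left out there for the low level of its other triplicated genes. The larger values and smaller p-values partly follow from that choice and cannot count as added support. The call of Atp5o was lost when any of male Ts65Dn replicates 2, 3, 5 or 6 or male euploid replicate 3 was left out, with log2 fold changes of 0.48 to 0.50 and edgeR adjusted p-values of 0.102 to 0.113.

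In females, Atp5j was at 6.42 to 7.13 (median 6.48) in euploid and 7.03 to 7.25 (median 7.19) in Ts65Dn animals. Atp5o was at 6.81 to 7.60 (median 6.87) and 7.44 to 7.66 (median 7.61). For each gene, the euploid median was exceeded by all 8 trisomic females, and the overlap came from euploid replicate 2, which held the highest euploid value of each. The log2 fold changes were 0.57 for Atp5j (SE 0.11, edgeR adjusted p = 0.0086) and 0.58 for Atp5o (SE 0.12, adjusted p = 0.0127). They were 0.68 (SE 0.07, edgeR adjusted p = 4.7e-06) and 0.70 (SE 0.07, adjusted p = 5.5e-06) without the pair of libraries that stood apart, which takes out the highest euploid value of each gene.

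Between Ts65Dn;Brwd1+/- and Ts65Dn neither gene was called. Ts65Dn;Brwd1+/- males had Atp5j at 6.58 to 7.25 (median 7.20) and Atp5o at 6.96 to 7.72 (median 7.63), and females at 6.54 to 7.72 (median 7.15) and 6.96 to 8.20 (median 7.59). The lowest values belonged to the libraries without trisomic dosage and the highest female values to replicate 7. Compared with Ts65Dn, the log2 fold changes were -0.02 (SE 0.11) for Atp5j and 0.004 (SE 0.12) for Atp5o in males, and 0.01 (SE 0.11) and 0.05 (SE 0.12) in females, with no edgeR adjusted p under 0.1. Compared with euploid they were 0.51 (SE 0.11, edgeR adjusted p = 0.0528) and 0.51 (SE 0.11, adjusted p = 0.0578) in males and 0.59 (SE 0.11, adjusted p = 0.0096) and 0.63 (SE 0.12, adjusted p = 0.0080) in females. Without the libraries against their labels, the male values were 0.64 and 0.65, and the limit given above for that choice holds here too. The male calls against euploid were lost when any of Ts65Dn;Brwd1+/- replicates 1, 4, 5, 6 or 7 was left out, and that of Atp5o also without euploid replicate 3 or 6. The log2 fold changes were then 0.48 to 0.51, with edgeR adjusted p-values of 0.104 to 0.126. All these comparisons within a sex share the libraries of the euploid and Ts65Dn groups.

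The same levels were also set against the other 15 complex V members of each library, a description that takes out differences shared by the whole complex. The log2 difference of Atp5j from the mean of those 15 genes was 0.04 ± 0.04 in 8 euploid males and 0.07 ± 0.02 in 7 euploid females with the sex of their label (SD). It was 0.67 ± 0.03 in 5 Ts65Dn males, 0.67 ± 0.03 in 8 Ts65Dn females, 0.65 ± 0.05 in 6 Ts65Dn;Brwd1+/- males and 0.63 ± 0.03 in 7 Ts65Dn;Brwd1+/- females, leaving out libraries against their labels. Atp5o stood at 0.46 ± 0.02 and 0.48 ± 0.05 in these euploid males and females, and at 1.05 ± 0.03, 1.10 ± 0.04, 1.07 ± 0.03 and 1.09 ± 0.05 in the trisomic groups in the same order. In embryos the differences were -0.17 ± 0.10 (euploid, n = 8) and 0.41 ± 0.07 (Ts65Dn, n = 7) for Atp5j, and 0.71 ± 0.06 and 1.33 ± 0.06 for Atp5o. On this scale no trisomic library with the dosage of its label overlapped a euploid one. That dosage was read from the other triplicated genes, so this separation partly follows from how the libraries were picked. Female euploid replicate 2, whose Atp5j level of 7.13 lay among those of Ts65Dn females, was at 0.09, and the 4 libraries with a dosage near 0 were at -0.02 to 0.07.

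**Figure D2:**
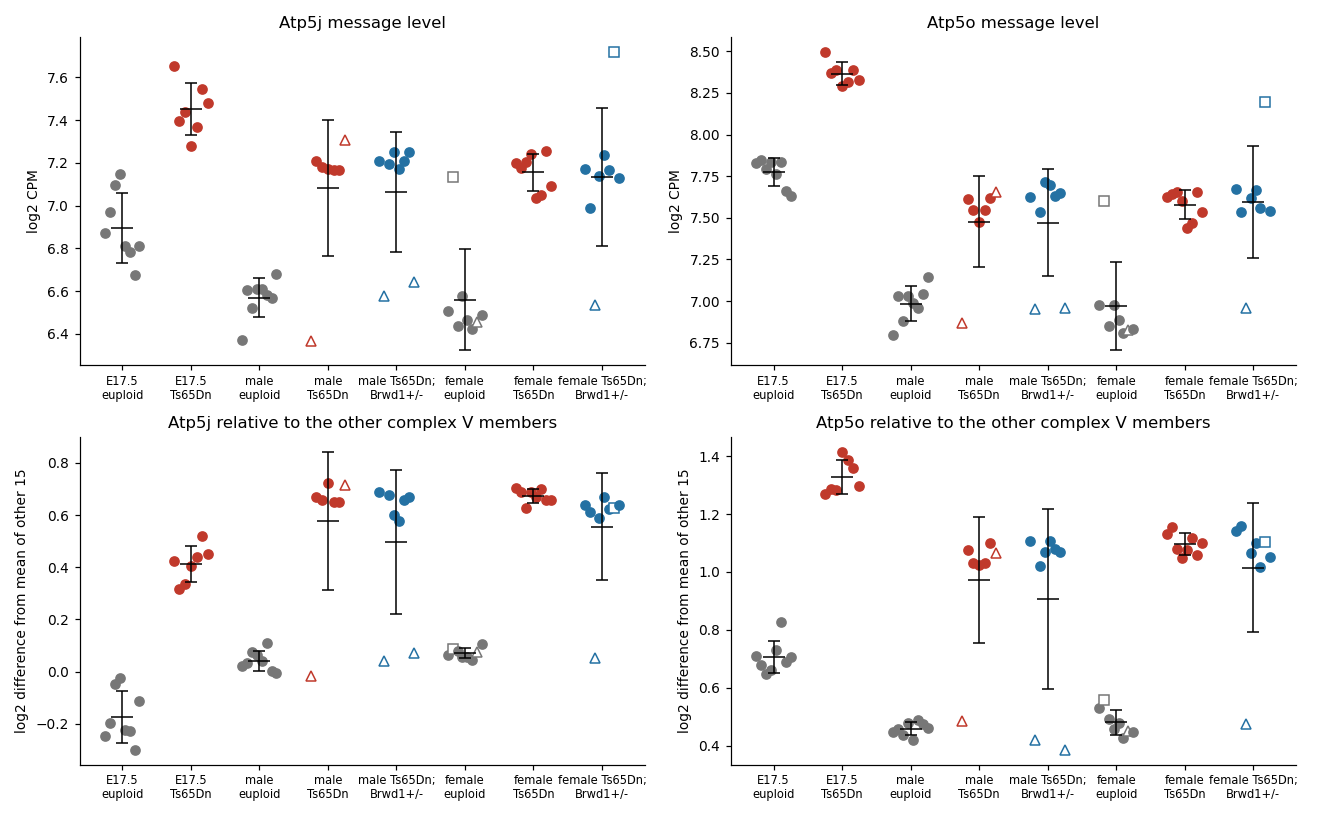
Levels of Atp5j and Atp5o in every library (upper panels, log2 CPM) and their log2 difference from the mean of the other 15 complex V members of the library (lower panels), with the mean and SD of each group over all its libraries. Triangles are libraries whose dosage or sex-linked messages go against their label and squares the pair of female libraries that stood apart. In the lower panels the filled trisomic points lie above all euploid points, and libraries without trisomic dosage are not among the filled points.

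Annotated exons of these genes partly overlap those of neighbours, and how reads in such stretches were counted is not known here. The kit does not mark strand, and 35.6% of the annotated exon bases of Atp5o are overlapped by D430001F17Rik and Gm15976 on mm10, while 12.7% of those of Atp5j are overlapped by Gabpa. Reads of Atp5j and Gabpa in that stretch cannot be told apart. Counts were 3601 to 16955 for Atp5j and 4787 to 22569 for Atp5o in adults. In bulk tissue, fewer cells of a type and less RNA per cell cannot be told apart.

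Of the members, 79 passed the filter on low counts in embryos, 81 in males and 80 in females. Cox8c, Ndufb4c and Uqcr11 passed in no comparison of genotypes. Uqcr11, a subunit of complex III, had 0 to 5 counts in adults and was at 0 in 33 of 47 libraries, and Cox8c was at 0 in all 47. Cox6a2 and Cox8b did not pass in embryos, Cox7b2 passed in males but not in females or embryos, and Ndufb4b did not pass in the fit of either adult sex.

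In E17.5 forebrain, 3 of 79 members were called between Ts65Dn and euploid, all higher, where 1.35% of all genes tested were called, 1.1% higher and 0.244% lower. Beside Atp5j and Atp5o this was Cox6b2 (gene 333182, chr7:4751792-4753094), known as the testis form of a subunit at the interface of the complex IV dimer. Cox6b2 was at 1.09 to 1.95 log2 CPM (median 1.55) in euploid and 1.80 to 2.62 (median 2.17) in Ts65Dn embryos, and 6 of 7 Ts65Dn embryos lay above all euploid ones, a separation not counted over all genes. Its log2 fold change was 0.69 (SE 0.16, edgeR adjusted p = 0.0586), from 40 to 316 counts per embryo. The adjusted p was 0.163 with the Ttr level of each embryo as a term, a setting added after seeing the data, and 0.246 with the replicate number as a block. The call was also lost when any of euploid replicates 4, 5, 7 or 8 or Ts65Dn replicates 2, 5 or 7 was left out, with log2 fold changes of 0.62 to 0.67 and edgeR adjusted p-values of 0.109 to 0.124. Beside this, all 9 choroid plexus markers had log2 fold changes above 0 in Ts65Dn embryos, with a median of 0.59 and 1 called, Enpp2. Ttr ran from 4.31 to 10.39 in euploid and from 9.24 to 10.42 in Ts65Dn embryos. Of 6 excitatory neuron markers, 1 was above 0 (median -0.30, none called). Ts65Dn replicate 7 had the summed excitatory neuron markers at 8.73 log2 CPM, against 9.41 to 10.71 in the other embryos. This embryo also held the highest Cox6b2, 2.62. The part of tissue content in the Cox6b2 difference was not tested beyond the Ttr term. In adults Cox6b2 was not called, with log2 fold changes of -0.28 in males (SE 0.30, edgeR adjusted p = 0.858) and -0.12 in females (SE 0.34, adjusted p = 0.921). With 3 RUVr factors in DESeq2, Cox6b2 was called higher in Ts65Dn embryos (0.68, adjusted p = 2.5e-07), where 24.7% of all genes were called. The same setting called it lower in Ts65Dn males (-0.41, adjusted p = 0.085), where 7.07% of all genes were called.

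The other 76 members tested in embryos were not called. The median log2 fold change of the 79 members was -0.0076, beside -0.014 over all genes, and 36 lay above 0, beside 46.3% of all genes. The 35 members of complex I had a median of -0.020 and the 7 of complex III one of -0.014. All 4 members of complex II were above 0 (median 0.08), led by Sdha, the flavoprotein that holds the succinate site, at 0.10 (adjusted p = 0.40 by edgeR). Atp5e, the epsilon subunit of the ATP synthase, had the smallest p among lower members, at -0.12 (adjusted p = 0.45). Atp5d, the delta subunit, varied most between embryos, from 5.78 to 8.29 log2 CPM, with an SD within groups of 0.69 where the median member had 0.13, and its log2 fold change was -0.28 (SE 0.34). A second number in the titles splits the embryos into 2 sets that each hold both genotypes, and the labels do not say what it marks. Euploid Atp5d was at 7.44 to 8.29 in 4 embryos of one set and 6.22 to 6.89 in 4 of the other, without overlap, and Ts65Dn Atp5d was at 7.08 to 7.25 in 3 and 5.78 to 7.95 in 4. The 7.95 was that of Ts65Dn replicate 7, the embryo with low excitatory neuron markers. With this number as a term the same 3 members were called, with log2 fold changes of 0.57 for Atp5j, 0.60 for Atp5o and 0.70 for Cox6b2 (edgeR adjusted p = 6.5e-05, 1.5e-06 and 0.0682). Within each set, Ts65Dn and euploid embryos did not overlap for Atp5j or Atp5o, which was not counted over all genes.

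**Figure D3:**
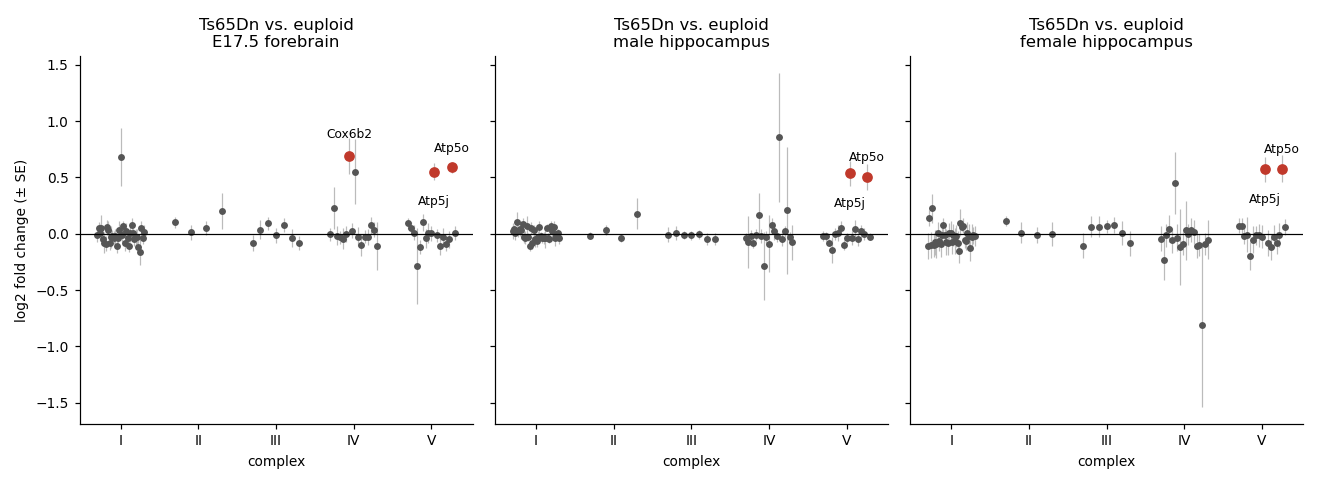
Log2 fold change with its SE for every member tested, grouped by complex, in Ts65Dn vs. euploid of E17.5 forebrain, male hippocampus and female hippocampus, with all libraries. Large red points are the members with an edgeR adjusted p under 0.1; Atp5j and Atp5o stand near 0.55 in each panel and the median of all members is near 0.

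In male hippocampus, 2 of 81 members were called between Ts65Dn and euploid, Atp5j and Atp5o, where 0.795% of all genes were called. The median of the members was -0.016, beside 0.0020 over all genes, and 32 lay above 0, beside 50.8% of all genes. Medians by complex lay between -0.020 (complex V) and 0.0087 (complex II). Atp5c1, the gamma subunit that turns inside the catalytic head, had the smallest p among lower members, with 7.01 to 7.24 (median 7.18) in euploid and 7.03 to 7.12 (median 7.09) in Ts65Dn males. Its log2 fold change was -0.08 (edgeR adjusted p = 0.44), and the groups overlapped. At an unadjusted p under 0.05, 8.91% of all genes passed.

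In female hippocampus, 2 of 80 members were called, again Atp5j and Atp5o, where 3.17% of all genes were called, 1.94% higher and 1.22% lower. The median was -0.017, as low as the -0.016 of all genes, and 27 members lay above 0, beside 45.7% of all genes. Sdha had the smallest p among the others, at 8.48 to 8.72 (median 8.58) in euploid and 8.62 to 8.79 (median 8.69) in Ts65Dn females, with a log2 fold change of 0.11 (SE 0.04, edgeR adjusted p = 0.171). The groups overlapped.

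This female comparison changed when the pair of libraries that stood apart was left out, a setting added after seeing the data. Then 17 of 80 members were called, all higher in Ts65Dn, where 17.4% of all genes were called and 8.19% were higher. The median of the members was 0.08 and 72 lay above 0. The euploid library left out held the highest member mean of its group. Taking it out raises Ts65Dn relative to euploid in these genes, so the calls cannot count as support for a difference. Among the 15 called members that are not triplicated were Ndufa10 of complex I (0.21, SE 0.04, edgeR adjusted p = 0.0051), Sdha of complex II (0.14, SE 0.04, adjusted p = 0.0195), and Uqcrc1, a core protein of complex III (0.16, SE 0.04, adjusted p = 0.0247). Uqcrfs1, the Rieske iron-sulfur protein, had 0.15, and the alpha and beta subunits of the ATP synthase head, Atp5a1 and Atp5b, had 0.13 and 0.14. Complex IV had 1 called member, Cox6a2 (0.65, SE 0.25). Ndufa10 ran from 6.71 to 7.29 (median 6.85) in all 8 euploid and from 6.97 to 7.14 (median 7.04) in Ts65Dn females. Leaving out female euploid replicate 2 alone gave 4 called members of 80 where 9.32% of all genes were called, with a median of 0.08 and 72 above 0, while leaving out Ts65Dn;Brwd1+/- replicate 7 alone gave 2 called and a median of -0.011.

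Whether the sexes differed in the effect of Ts65Dn was tested as an interaction, in which 0 of 82 members were called (0% of all genes). The smallest p belonged to Sdha, whose effect was larger in females by 0.14 (SE 0.05, edgeR adjusted p = 0.308). Without the pair of libraries that stood apart, a setting with the limit given above, Sdha was called, with a difference of 0.15 (SE 0.04, edgeR adjusted p = 0.092). Without the libraries against their labels it was 0.12 (edgeR adjusted p = 0.53). At an unadjusted p under 0.05, 1 member passed with edgeR, where 11.1% of all genes passed, and 1 with DESeq2, which also called none. The effect of Brwd1+/- in Ts65Dn was tested between the sexes in the same way, and 0 of 82 members were called, with none at an unadjusted p under 0.05 by either tool, where 3.73% of all genes passed with edgeR. Of the 82, 55 had a difference above 0, beside 52.7% of all genes.

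Compared with Ts65Dn, no member was called in Ts65Dn;Brwd1+/- males by edgeR or by DESeq2, and edgeR called 0% of all genes. Of the 81 members, 70 had log2 fold changes above 0, beside 47.8% of all genes, with a median of 0.06 beside -0.0054. At an unadjusted p under 0.05, 10 members were higher and none lower, where 7.48% of all genes passed. Atp5c1 was at 7.15 to 7.27 (median 7.18) in Ts65Dn;Brwd1+/- and, as given above, 7.03 to 7.12 in Ts65Dn males. The log2 fold change of Atp5c1 was 0.10 (SE 0.03, edgeR adjusted p = 0.626). It was named for its small p, and how many of all genes are as far apart between these groups was not counted. The smallest p among lower members was that of Atp5g2, at -0.07 (SE 0.06). All 7 members of complex III and 31 of 34 of complex I were above 0. Cytosolic ribosomal protein genes moved with them, 65 of 80 above 0 with a median of 0.05. Without the libraries against their labels the members' median was 0.06 with 72 of 81 above 0. With 3 RUVr factors in DESeq2, a kind of model the study used with a number of factors chosen here, 9 members were called, all higher, where 5.92% of all genes were called and 2.74% were higher. Among them were Atp5c1 (0.10, adjusted p = 0.0081) and Ndufv2, a subunit of the NADH-binding part of complex I (0.15, adjusted p = 0.0145).

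In Ts65Dn;Brwd1+/- vs. euploid males, Atp5j and Atp5o were the 2 of 81 members called, where 0.576% of all genes were called, and 70 members lay above 0, beside 48.7% of all genes. At an unadjusted p under 0.05, 10.1% of all genes passed. Ndufs1, the largest subunit of complex I, was at 6.89 to 7.07 (median 6.98) in euploid, 6.98 to 7.09 (median 7.04) in Ts65Dn and 7.06 to 7.13 (median 7.10) in Ts65Dn;Brwd1+/- males. Against euploid the log2 fold change of this gene was 0.11 (SE 0.03, edgeR adjusted p = 0.114), and it was called with 3 RUVr factors in DESeq2 (adjusted p = 4.6e-04, 7 members called, 7.79% of all genes).

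In females, no member was called between Ts65Dn;Brwd1+/- and Ts65Dn by edgeR or DESeq2 (0% of all genes with edgeR), and none had an unadjusted p under 0.05 with either, where 3.52% of all genes passed with edgeR. Of the 80 members 77 lay above 0, beside 51.5% of all genes, with a median of 0.09, and 75 of 81 ribosomal protein genes lay above 0 with a median of 0.10. Without Ts65Dn;Brwd1+/- replicate 7 the members' median was 2.5e-04 and 41 of 81 lay above 0. Cox4i2 had the smallest p among higher members (0.34, SE 0.19) and Ndufc2 among lower ones (-0.10). With 3 RUVr factors in DESeq2, 18 members were called, all higher, where 5.11% of all genes were called and 1.92% were higher. Of the members called with these factors in the 2 sexes, 9 and 18, Ndufa11 and Uqcrc1 were called in both.

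In Ts65Dn;Brwd1+/- vs. euploid females, Atp5j and Atp5o were again the 2 of 80 called, where 0.729% of all genes were called. The median was 0.07, and 73 lay above 0, beside 48% of all genes. The median ran from -0.024 without Ts65Dn;Brwd1+/- replicate 7 to 0.16 without euploid replicate 2, and with the latter left out 11 of 80 members were called, all higher, where 8.0% of all genes were called and 3.81% were higher. Without both libraries, 8 were called, all higher, where 4.44% of all genes were called and 2.35% were higher. The 6 that are not triplicated were Ndufa10 (0.17), Uqcrc1 (0.16), Sdhb, the iron-sulfur subunit of complex II (0.16), Atp5a1 (0.14), Uqcrc2 (0.14) and Ndufs1 (0.12). In each setting without euploid replicate 2, the euploid library with the highest member mean was taken out, so the limit given above holds here too.

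Other genes of the pathway were counted from fixed lists. Of 47 assembly factors tested, Tmem242, which takes part in assembling complex I and the ATP synthase and lies in the triplicated segment of chromosome 17, was called higher in Ts65Dn at each age and sex, by 0.60 in embryos, 0.49 in males and 0.67 in females. Cox20, a chaperone for a complex IV subunit, was lower in Ts65Dn females by a log2 fold change of -0.28 (SE 0.07, edgeR adjusted p = 0.0383). Of 16 regulators of mitochondrial biogenesis, the triplicated Gabpa was called in all 3 comparisons of Ts65Dn with euploid (0.48, 0.50 and 0.53), and so was the triplicated Tfb1m, which modifies mitochondrial ribosomal RNA (0.52, 0.52 and 0.42). Gabpb1, the partner of Gabpa, was lower in Ts65Dn embryos (-0.25, adjusted p = 0.0665), and Polrmt, the mitochondrial RNA polymerase, in Ts65Dn females (-0.23, adjusted p = 0.0216). Of 18 genes of the TCA cycle and its entry, Pdha1 was higher in Ts65Dn females (0.17, adjusted p = 0.0474). The 13 subunits encoded by mitochondrial DNA were not called in any comparison of genotypes. Their medians were -0.014 in embryos, 0.09 in males and 0.09 in females, with 6, 10 and 12 of 13 above 0. Ndufv3, a complex I subunit left out by the rule, had log2 fold changes of 0.04, 0.02 and 0.04 and was not called.

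Of the cell type markers tested, 4 of 71 were called in embryos, 1 of 72 in males and 4 of 72 in females between Ts65Dn and euploid. In embryos these were Gja1 (0.59), Cdh5 (0.48), Pdgfra (0.39) and Enpp2 (0.59), all higher. The median log2 CPM of the summed astrocyte markers was 9.04 in euploid and 9.39 in Ts65Dn embryos, and that of the oligodendrocyte precursor markers was 7.69 and 8.06. In Ts65Dn females, the CA1 marker Wfs1 was lower (-0.66) and the dentate marker C1ql2 higher (0.60), and Olig1 and Olig2, both triplicated, were higher (0.45 and 0.43). In Ts65Dn males Aif1 was higher (0.56), and in Ts65Dn;Brwd1+/- vs. euploid Aif1 (0.57), Slc1a2 (-0.22) and Flt1 (-0.35) were called in males and Eomes (-2.98) in females. Their part in the members' values was not tested.

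Counted levels of the subunits within a complex were far apart. Per kilobase of annotated exon, in 16 euploid adults, and leaving out Ndufb4b and Ndufb4c, for which no exon length was matched, the highest and lowest members on the log2 CPM scale were Ndufb9 (7.45) and Ndufb2 (3.39) in complex I, Sdha (7.22) and Sdhd (0.60) in complex II, and Uqcrh (7.37) and Uqcr11 (-5.03) in complex III. They were Cox6a1 (9.01) and Cox8c, which had 0 counts in all 47 adult libraries, in complex IV, and Atp5b (9.37) and Atp5g1 (2.88) in complex V. Sdhd anchors complex II in the membrane and had 47 to 234 counts in adults, and Uqcr11 had 0 to 5. Whether reads of these genes were lost in alignment or counting was not tested, so their low values need not mean low messages. Exon length is the union of annotated exons from a reference that may differ from the annotation the authors counted on. The per-kilobase level of a gene with long annotated exons is lowered, such as Atp5g1 with 4912 bases and Ndufb2 with 4375.

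The tissue-specific isoforms of complex IV were low beside their ubiquitous partners. In euploid adults, Cox4i1 stood at 8.78 log2 CPM per kilobase and Cox4i2, known from lung and low oxygen, at 0.37. The heart and muscle forms Cox6a2, Cox7a1 and Cox8b stood at 1.76, 1.28 and 0.95, against 9.01 for Cox6a1, 4.30 for Cox7a2 and 9.0 for Cox8a. Cox6b1 stood at 7.92 and Cox6b2 at 1.94. Ndufa4, which is now assigned to complex IV, was at 8.04 and its relative Ndufa4l2 at 1.39. Of the 3 genes that encode the same mature subunit c of the ATP synthase ring, Atp5g3 was at 8.26, Atp5g2 at 4.92 and Atp5g1 at 2.88.

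**Figure D4:**
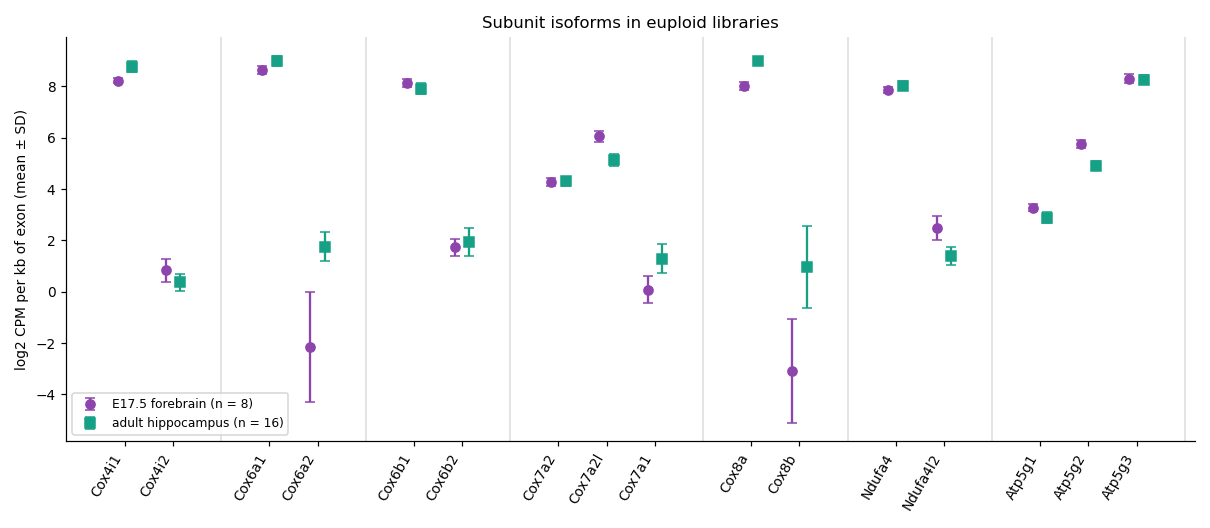
Mean and SD of log2 CPM per kilobase of exon for members with isoforms, in 8 euploid E17.5 forebrains (circles) and 16 euploid adult hippocampi (squares), on a fit of their own. The ubiquitous forms Cox4i1, Cox6a1 and Cox8a lie above 8, and Cox4i2, Cox6b2, Cox7a1, Cox8b and Cox6a2 lie below 2 in both.

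Euploid adult hippocampus (n = 16) differed from euploid E17.5 forebrain (n = 8) in 65 of 81 members tested, 37 higher and 28 lower, where 84.3% of all genes were called, 41.7% higher and 42.6% lower, and 49.6% lay above 0 with or without a call. Age, region and count table differ together here and cannot be told apart. Complexes went different ways. In complex I, 19 of 35 members were higher and 9 lower, in complex II 3 of 4 were higher and none lower, in complex III 5 of 7 higher and 2 lower, and in complex IV 8 of 18 higher and 6 lower. In complex V, 2 of 17 were higher and 11 lower, the 2 being Atp5b (0.50) and Atp5a1 (0.54), which form the catalytic head. Atp5o was lower in adults (-0.47) and Atp5j was not called (-0.0063). The 13 subunits of mitochondrial DNA had a median of 0.84, with 9 higher and 4 lower, and 16 of 18 genes of the TCA cycle were higher, while all 82 ribosomal protein genes were lower with a median of -1.65.

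Cox6a2 and Cox8b passed the filter on low counts only in adults, and Ndufb4b only in embryos, so that a difference followed from how they entered. Without these 3, 35 of 78 members were higher and 27 lower, with 6 higher and 6 lower of 16 in complex IV and 19 higher and 8 lower of 34 in complex I. Cox8b had a median of 2 counts in embryos and 34 in adults, and Cox6a2 7 and 131. Their fitted log2 fold changes of 3.98 and 3.09 depend on the few counts in embryos and are not given as sizes of a change, nor is the -1.12 of Ndufb4b, which had 2 to 20 counts in adults.

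Among members that passed in both tissues, the largest rises in adults were those of Sdha (1.42, SE 0.05), Cox7a1 (1.25, SE 0.26) and Cox8a (0.99, SE 0.07). All 16 adult libraries lay above all 8 embryonic ones for Sdha and Cox8a, and 13 did for Cox7a1. The largest falls were those of Ndufa4l2 (-1.11, SE 0.17), Atp5l, subunit g of the ATP synthase (-0.94, SE 0.07), Cox7a2l, which helps complexes III and IV to associate (-0.92, SE 0.09), and Atp5g2 (-0.83, SE 0.07). All 16 adult libraries lay below all embryonic ones for Atp5l, Cox7a2l and Atp5g2, and 15 did for Ndufa4l2. These members were picked for the size of their change, and 84.3% of all genes were called. How many of all genes separate the tissues in this way was not counted, so the separation is not particular to the members. Ndufb4 shares 18.3% of its 50-base stretches with other genes, so its counts and those of its copy Ndufb4b may be split. With the upper quartile in place of TMM, 31 members were higher and 33 lower, and without female euploid replicate 2, 37 and 33. Of the 26 members with the longest exons, 16 were higher and 5 lower, against 10 and 11 of the 26 with the shortest. Spearman's rho between exon length and the log2 fold change was 0.17 over 80 members and 0.079 over 15577 genes tested.

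**Figure D5:**
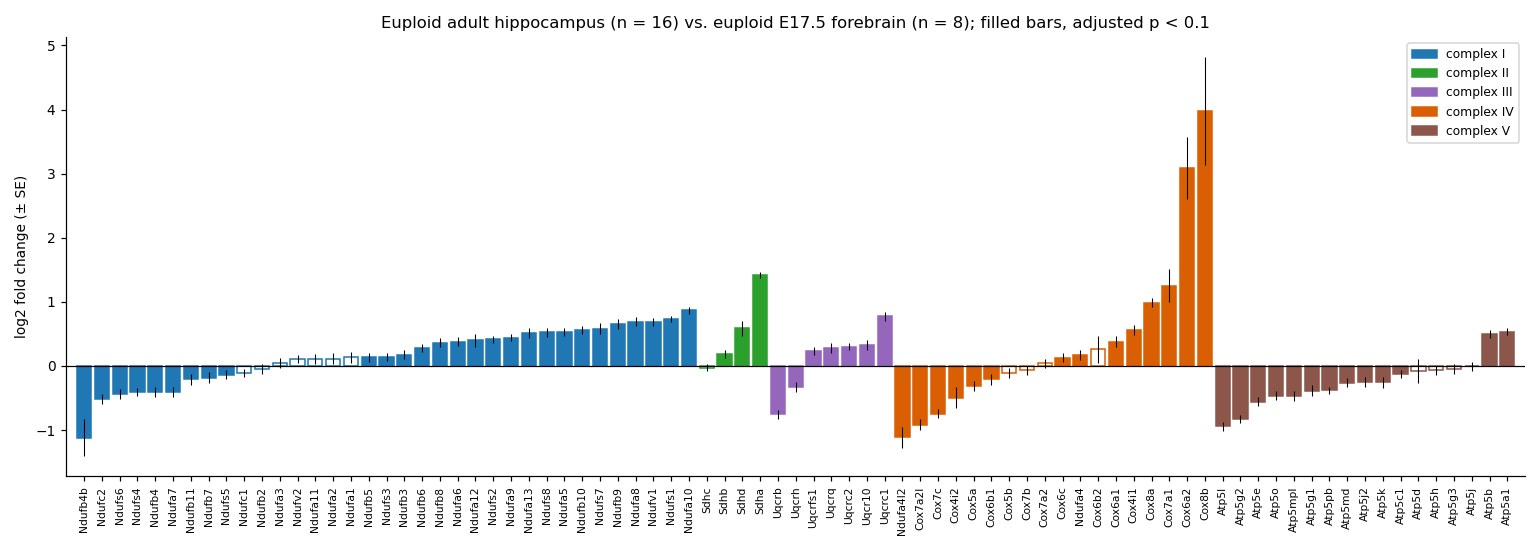
Log2 fold change with its SE of each member tested between 16 euploid adult hippocampi and 8 euploid E17.5 forebrains, in order within each complex; filled bars have an edgeR adjusted p under 0.1. In complex V only Atp5a1 and Atp5b have filled bars above 0 and 11 members have filled bars below 0, while in complex I 19 are above and 9 below.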

How the data were processed

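Raw counts per gene were deposited by the authors in 2 tables, for E17.5 forebrain and adult hippocampus. Reads of each library came from 2 flow cells, per the labels. Per the study's methods, single reads from TruSeq RNA v2 libraries were aligned to mm10 with HISAT2 (2.2.1 in the methods, 2.1.0 in the submitters' processing notes) and counted with featureCounts 2.0.1. The kit does not mark strand. Whether reads over overlapping genes were counted for each gene or for none is not known here. The methods name Ensembl 90 while the tables use Entrez identifiers, so exon lengths and overlaps computed here may rest on other gene models than the counts. Columns were matched to samples by title.

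edgeR 4.0.16 (R 4.3.3) was run on these counts per tissue, and per sex in adults, over all genes passing filterByExpr (minimum count 10), with TMM scaling, the robust quasi-likelihood test and Benjamini-Hochberg adjustment over all genes tested. Calls use an adjusted p under 0.1, the cutoff of the study. Levels are log2 CPM with a prior count of 0.5. The interaction tests use all adult libraries. DESeq2 1.42.0, RUVr factors, another scaling, other filters, leaving out libraries and terms for Ttr or replicate number were alternatives. The number of RUVr factors (1 to 3) was chosen here. Leaving out libraries with high ribosomal protein messages and the Ttr term were added after seeing the data. The test was checked on simulated counts.

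Members and lists were chosen with earlier results of these data known. Named are Atp5j, Atp5o, Gabpa, Ndufv3 and the isoforms, the members called in a comparison of genotypes (at most 10 per direction, or with none the smallest p in each direction), the highest and lowest member per complex, the 5 largest changes with age in each direction, and called genes of other lists (at most 5). Ndufs1, Sdha, Atp5e and Atp5d, and members named under other settings, were named after their values were seen. Positions and promoters come from RefSeq GRCm38.p6. No 2 libraries of the same group agreed within sampling noise (210 pairs), and pairs across groups were not compared.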

Additional observations from a re-analysis of the deposited data

Results flagged for a closer look

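In groups of 4 to 10 samples, the highest or lowest library was set against the range of its group. Of 58 groups tested, 9 had a library far from the others, where chance gives about 1 in 20 for independent groups. These were not independent, since the same libraries were tested on related quantities, and the flags came from the few libraries named below. In males, Ts65Dn replicate 1 had Atp5j at 6.37 log2 CPM, where the other 6 were at 7.17 to 7.31, and Atp5o at 6.87, where the others were at 7.47 to 7.66. This library has a dosage of the triplicated genes near 0.

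Female euploid replicate 2 was far above its group in Atp5j (7.13, others 6.42 to 6.58), Atp5o (7.60, others 6.81 to 6.98) and Atp5d (7.75, others 6.53 to 6.81). It was also far above in the mean over the members that are not triplicated (5.96, others 5.21 to 5.44) and over the ribosomal protein genes (5.85, others 5.21 to 5.35). Female Ts65Dn;Brwd1+/- replicate 7 was far above its group in the same means, at 5.99 (others 5.25 to 5.50) and 5.78 (others 5.16 to 5.34).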

How the results depend on the processing

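The direction of Atp5j and Atp5o in trisomic vs. euploid animals held under all alternatives run. Of the counts of members called, 84 stayed within 1.5 times the reported one and 30 moved, leaving aside single libraries left out. The cause was not tested. With DESeq2 and 3 RUVr factors the counts in Ts65Dn vs. euploid were 7 in embryos, 5 in males and 16 in females, where 24.7%, 7.07% and 25.4% of all genes were called. In Ts65Dn;Brwd1+/- vs. Ts65Dn they were 9 and 18 in males and females (5.92% and 5.11% of all genes), and vs. euploid 7 and 30 (7.79% and 20.8%). With 1, 2 and 3 RUVr factors in edgeR, Ts65Dn vs. euploid females gave 10, 12 and 16 (13.9%, 20.1% and 23.4% of all genes), Ts65Dn;Brwd1+/- vs. Ts65Dn gave 2, 3 and 3 in males (1.5%, 2.53% and 3.47%) and 2, 7 and 11 in females (0.286%, 1.68% and 2.65%), and Ts65Dn;Brwd1+/- vs. euploid females gave 17, 25 and 27 (9.05%, 15% and 18.3%). For males against euploid, 2 and 3 factors gave 4 and 6 (3.15% and 5.03%), and for embryos 3 factors gave 6 (21.8%). At an adjusted p under 0.05, males had 1 (Ts65Dn) and 0 (Ts65Dn;Brwd1+/-) called against euploid. Without the pair of female libraries that stood apart, a setting with the limit given above, Ts65Dn and Ts65Dn;Brwd1+/- females had 17 and 8 called against euploid, and DESeq2 gave 21 and 13 (20.7% and 9.89%). The difference of the Ts65Dn effect between sexes had 1 call there (1.4%) and 6 with 3 RUVr factors (13.1%).

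Leaving out 1 library at a time gave 2 to 3 calls in embryos, 1 to 2 in males and 2 to 4 in females for Ts65Dn vs. euploid, 0 to 3 in males and 2 to 11 in females for Ts65Dn;Brwd1+/- vs. euploid, 0 in each sex vs. Ts65Dn, and 62 to 70 for age.

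Values near 0 changed sign. In Ts65Dn;Brwd1+/- vs. Ts65Dn males, Atp5j was 0.037 without the libraries against their labels. Without single libraries it ran from -0.12 (without Ts65Dn replicate 1) to 0.038 and Atp5o from -0.078 to 0.069 (highest without Ts65Dn;Brwd1+/- replicate 2 for each). In females, Atp5j was -0.012 with DESeq2 and 3 RUVr factors, -0.0039, -0.0043 and -0.0037 with 1, 2 and 3 factors in edgeR, -0.0070 with the Ttr term, and -0.087 and -0.088 with edgeR and DESeq2 without the pair of libraries. Atp5o was -0.052 by either tool without the pair. Without single libraries Atp5j ran from -0.090 to 0.078 and Atp5o from -0.055 to 0.12, lowest without Ts65Dn;Brwd1+/- replicate 7 and highest without replicate 3. The sex difference of the Ts65Dn effect was -0.043 (Atp5j) and -0.0058 (Atp5o) without the libraries against their labels, and that of the Brwd1+/- effect -0.067 and -0.059 without the pair.

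With the replicate number as a block, embryos had 2 members called. The number is not a pairing, since 3 of 7 pairs correlated above 0.1 and 2 embryos correlated best with their own number. Leaving out libraries with Ttr over 4 above the median was not run because 0 libraries met that limit. Members with few counts, such as Uqcr11, Sdhd and Cox8b, limit what was detectable.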

Other observations

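Low isoforms of complex IV varied between adult libraries together with the choroid plexus message Ttr, across genotypes. The 6 adult libraries with the highest Cox6b2 (2.32 to 2.51 log2 CPM, from 4 groups) had Ttr at 12.1 to 12.4, and the 6 with the lowest (0.12 to 0.57) had Ttr at 3.41 to 5.95. For Cox8b, the heart and muscle form of subunit 8, the 6 highest (1.18 to 1.96) had Ttr at 12.1 to 12.5 and the 6 lowest (-3.19 to -2.26) at 3.77 to 6.85. Cox7a1 ran from -1.04 to -0.48 in its 6 lowest libraries, with Ttr at 3.41 to 8.65, and from 0.79 to 1.28 in its 6 highest, with Ttr at 11.5 to 12.4. Cox6a2 and Cox4i2 had overlapping ranges of Ttr in their highest and lowest libraries. These libraries were picked by the values shown, so no test is given, and the part of choroid plexus tissue was not tested.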
